A study of Mus musculus with 4 samples.

Results

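The receptors through which blood progenitors read haematopoietic cytokines were examined in *Ebf1*-/- FL HPCs that carried either the *Mir195* virus or its control (EMPTY). The 9 genes are *Il7r*, *Il2rg*, *Crlf2*, *Flt3* and *Kit*, whose products bind or share the cytokine systems of lymphoid culture, and *Csf1r*, *Csf2ra*, *Csf2rb* and *Csf3r*, the receptors for the myeloid colony-stimulating factors. They were chosen by name, not by their values, though earlier results of these data were known. Every probe that the array assigns to them was taken, which gave 13 of the 39429 probes on the array. All 13 were well above background on all 4 arrays. None of the tested receptors passed an adjusted p of 0.05 between the viruses in the limma fit across all probes, nor did any other probe. The largest difference was 0.33 on the log2 scale for a probe of *Flt3*, and no 95% interval reached a change of 2-fold in either direction.

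Both groups consisted of lineage-negative fetal liver cells from embryos that lack *Ebf1*, a transcription factor required for the start of the B cell programme, and both were given SCF, IL-7 and Flt-ligand at 10 ng/mL each. The EMPTY cells carried a retrovirus with a green fluorescent marker alone, and the *Mir195* cells carried the same vector with a segment around the microRNA gene that was amplified from a human leukaemia line. Per the methods, such cells were grown on OP9 cells, a mouse stromal line without macrophage colony-stimulating factor, and a sort of the infected cells before RNA extraction is not stated. There were 2 arrays for each virus. The labels number the replicates but do not say whether they came from separate embryos or cultures, so the tests measure only the spread between these samples, and the number of arrays limits the precision. All arrays lay on 1 slide, with the viruses in separate positions, and position and virus cannot be told apart.

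Cytokine receptors at the surface of progenitors fall into classes that signal in different ways. FLT3, KIT and the product of *Csf1r* are receptor tyrosine kinases, which are joined into dimers by Flt-ligand, SCF and M-CSF or IL-34 and then phosphorylate themselves and their adaptors. The others have no kinase of their own and rely on Janus kinases that sit on their tails and activate STAT proteins. IL-7 is bound by the IL7R chain together with the common gamma chain encoded by *Il2rg*, and TSLP by IL7R together with the chain encoded by *Crlf2*. GM-CSF binds the alpha chain encoded by *Csf2ra*, which pairs with the common beta chain encoded by *Csf2rb*, and G-CSF binds the product of *Csf3r*. IL-7 and Flt-ligand are needed for the lymphoid and B cell lineages, SCF for stem cells and early progenitors, and the colony-stimulating factors for macrophages and granulocytes. In whole cultures, fewer cells of a type and less RNA per cell cannot be told apart.

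The mature microRNA of the *Mir195* virus is given in its mouse form from RefSeq (GRCm38.p6, chr11:70235062-70235082, plus strand), since it is the agent that separates the groups. Its seed, bases 2 to 8, is in capitals.

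mmu-miR-195a-5p: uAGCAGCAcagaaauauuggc

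The letters of the probes bear on the values. Of the receptor probes, 12 share no run of 18 bases with a probe of another gene, on either strand, among all 39429 probes. The exception is the only probe of *Csf3r* (A_55_P2070352), which shares such a run with 3 probes of other genes on the same strand and with 2 on the opposite strand. Bases 31 to 60 of this 60-base probe are shown because their letters are those of the B1 short interspersed repeat, which is scattered through mouse transcripts, and the stretch in capitals is the longest that 2 other probes hold on the same strand. A probe on the opposite strand holds it too.

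Csf3r: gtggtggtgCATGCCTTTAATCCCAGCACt

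The probes of *Csf2rb* and of its neighbour *Csf2rb2*, a duplicated beta chain gene used by IL-3 in the mouse, are also alike. The 30-base windows of 1 probe of each gene that match best are shown, with the 3 positions at which they differ in capitals and 27 positions the same.

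Csf2rb A_52_P52618: ggcagatcaaAtgtCccttggtctCtgttc
Csf2rb2 A_51_P146753: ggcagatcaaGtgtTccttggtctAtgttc

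Levels below are log2 signals relative to the 75th percentile of the same array, so that 0 is the level of a probe brighter than 75% of all probes. A level describes 1 probe only and is not compared with that of another probe. Each receptor probe is a single spot.

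The fit with limma took every probe that both arrays of a virus measured well above background, and 12 of the 13 receptor probes, from 8 of the 9 genes, were among the 23731 tested. None of the 12 passed an adjusted p of 0.05, nor did any other tested probe (0 of 23731, 0%), and the lowest adjusted p in the array was 0.101. This count over all probes became 904 when *Mir195* replicate 1 was left out, and no receptor probe was among those calls. None of the 12 had an unadjusted p under 0.05 either, where 6.25% of all probes were higher and 2.09% lower with *Mir195*. The lowest unadjusted p of a receptor probe was 0.0726, and the adjusted p values lay between 0.649 and 0.995. The differences were above 0 for 8 of the 12 probes, where 53% of all probes were above 0. For 5 of them no EMPTY array reached either *Mir195* array, which held for 23.4% of all probes, and for 2 others the order was turned without overlap, which held for 14.4%. The 5 higher probes came from *Flt3*, *Kit* and *Csf1r* and were not independent of each other. An exact permutation test of 2 arrays against 2 cannot give a p below 0.333.

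**Figure D1:**
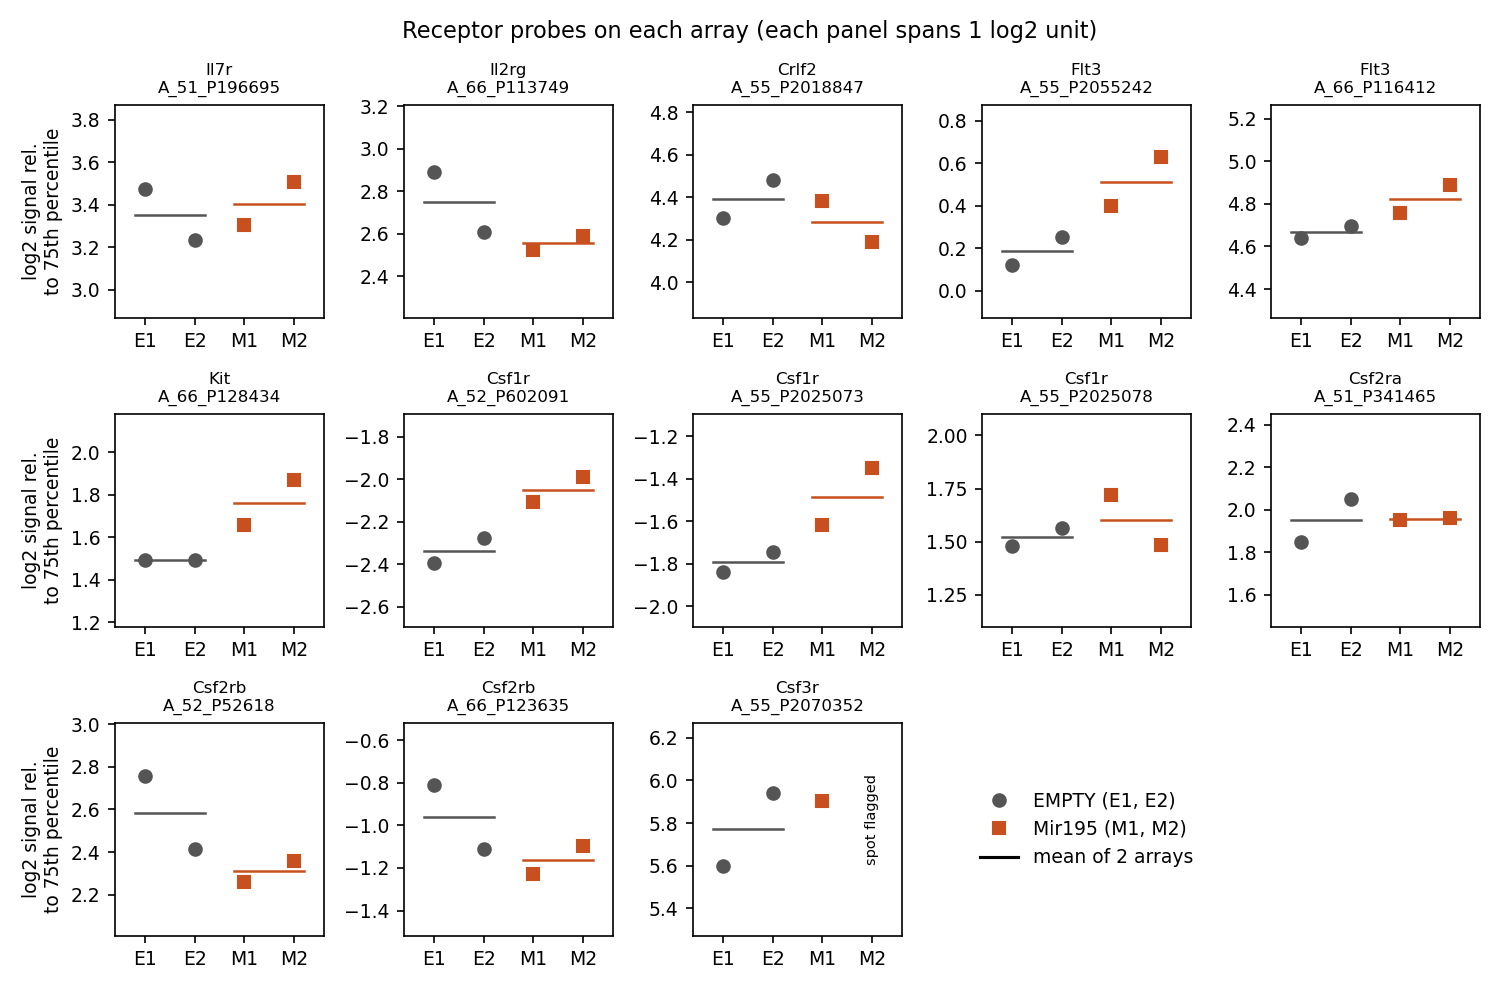
Level of each receptor probe as the log2 signal less its array's 75th percentile (y axis, 1 log2 unit per panel) for the 13 probes on EMPTY replicates 1 and 2 (E1, E2, circles) and Mir195 replicates 1 and 2 (M1, M2, squares), with a line at each group's mean of 2 arrays. Both Mir195 points lie above both EMPTY points for the Flt3 and Kit probes and 2 Csf1r probes, and below them for Il2rg and 1 Csf2rb probe. The Csf3r spot on Mir195 replicate 2 was flagged and has no point.

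*Il7r* encodes the alpha chain that binds IL-7, the cytokine that sustains B cell precursors in these cultures (chr15:9506159-9529941 in GRCm38.p6). Its probe A_51_P196695 read 3.47 and 3.23 with EMPTY and 3.30 and 3.51 with *Mir195*. The groups overlapped, with EMPTY replicate 1 and *Mir195* replicate 2 high and the other arrays low. The difference was 0.052 ± 0.15 (SE, n = 2 per group; limma adjusted p = 0.965), with a 95% interval from -0.35 to 0.45. Its sign changed when EMPTY replicate 2 (-0.070) or *Mir195* replicate 2 (-0.050) was left out.

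*Il2rg* encodes the common gamma chain, the partner of IL7R and of several other interleukin receptors (chrX:101264385-101268255). The probe A_66_P113749 read 2.89 and 2.61 with EMPTY and 2.52 and 2.59 with *Mir195*. The *Mir195* arrays were lower without overlap, but EMPTY replicate 2 lay much closer to them than to EMPTY replicate 1. The difference was -0.19 ± 0.15 (SE, n = 2 per group; limma adjusted p = 0.836), and it shrank to -0.052 without EMPTY replicate 1.

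*Crlf2* encodes the TSLP receptor chain, which pairs with IL7R (chr5:109554709-109559128). The probe A_55_P2018847 read 4.30 and 4.48 with EMPTY and 4.38 and 4.19 with *Mir195*, so the groups overlapped. The difference was -0.11, with a 95% interval from -0.48 to 0.26. Leaving out *Mir195* replicate 2 gave -0.010 and leaving out EMPTY replicate 2 gave -0.017. *Il7r*, *Il2rg* and *Crlf2*, the chains of the IL-7 and TSLP receptors, thus had differences on both sides of 0.

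*Flt3* encodes the receptor for Flt-ligand, a mark of multipotent and lymphoid progenitors (chr5:147330741-147400489), and has 2 probes. The first, A_55_P2055242, read 0.12 and 0.25 with EMPTY and 0.40 and 0.63 with *Mir195*. The second, A_66_P116412, read 4.64 and 4.70 with EMPTY and 4.76 and 4.89 with *Mir195*. Both probes ordered the arrays alike, with EMPTY replicate 1 lowest and *Mir195* replicate 2 highest, and neither group overlapped the other. The difference was 0.33 ± 0.14 for the first (SE, n = 2 per group; limma adjusted p = 0.649; 95% interval -0.04 to 0.70), a ratio of 1.25. It was 0.16 ± 0.12 for the second (SE, n = 2 per group; limma adjusted p = 0.840; 95% interval -0.16 to 0.48), a ratio of 1.11. Without *Mir195* replicate 2 the differences were 0.21 and 0.091.

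*Kit* encodes the SCF receptor, by which the starting progenitors are recognised and which mast cells keep (chr5:75574987-75656722). The probe A_66_P128434 read 1.49 and 1.50 with EMPTY and 1.66 and 1.87 with *Mir195*. The EMPTY arrays were nearly equal and both *Mir195* arrays lay above them, *Mir195* replicate 2 more so. The difference was 0.27 ± 0.13 (SE, n = 2 per group; limma adjusted p = 0.697; 95% interval -0.08 to 0.62), and it was 0.17 without *Mir195* replicate 2. Of 11 mast cell and basophil markers, 6, among them *Fcer1a*, *Ms4a2* and *Gata2*, were above background on no array. On all 4 arrays, 3 were above background, *Tpsb2*, *Hdc* and *Cpa3*. The summed level of all 11, in units of each array's 75th percentile, was 1.265 and 1.397 with EMPTY and 1.299 and 1.098 with *Mir195*. Without *Tpsb2*, which made up most of the sum, it was 0.591 and 0.554 with EMPTY and 0.460 and 0.378 with *Mir195*. The part of mast cells in the *Kit* values was not tested.

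*Csf1r* encodes the receptor for M-CSF and IL-34, on which macrophages depend (chr18:61105572-61131139), and has 3 probes. The probe A_52_P602091 read -2.40 and -2.28 with EMPTY and -2.11 and -1.99 with *Mir195*. The probe A_55_P2025073 read -1.84 and -1.74 with EMPTY and -1.62 and -1.35 with *Mir195*. Both were higher with *Mir195* without overlap, by 0.29 (95% interval -0.04 to 0.62) and 0.31 (95% interval -0.08 to 0.69), with limma adjusted p values of 0.653 and 0.684. Without *Mir195* replicate 2 they were 0.23 and 0.17.

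The third *Csf1r* probe, A_55_P2025078, read 1.48 and 1.56 with EMPTY and 1.72 and 1.49 with *Mir195*, and the groups overlapped. Its difference was 0.082 (95% interval -0.28 to 0.45), and without *Mir195* replicate 1 it was -0.037. The probes of this gene thus parted on *Mir195* replicate 2, which was the highest array for the first pair and next to the lowest for the third probe. Among 14 myeloid markers, 11 were above background on all 4 arrays, with the granule genes *Mpo*, *Elane*, *Prtn3*, *Ctsg* and *Ltf* among them. The other 3, the granulocyte genes *Ngp*, *S100a8* and *S100a9*, were above background on no array. The summed level of the 14 was 15.93 and 17.03 with EMPTY and 16.03 and 17.84 with *Mir195*. Of the 11 tested, 8 were above 0 and 3 below, with a median of 0.32. *Mpo*, a granule enzyme of early myeloid cells, and *Ctsg* were higher with *Mir195* without overlap, by 0.72 and 0.96. The *Ctsg* probe read -5.97 and -5.62 with EMPTY and -5.46 and -4.20 with *Mir195*. *Fcgr3*, an Fc receptor, was lower without overlap, by -0.55. The part of myeloid cells in the *Csf1r* values was not tested.

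*Csf2ra* encodes the GM-CSF binding chain (chr19:61217191-61228461). The probe A_51_P341465 read 1.85 and 2.05 with EMPTY and 1.95 and 1.96 with *Mir195*. Both *Mir195* values lay between the EMPTY values. The difference was 0.0066, with a 95% interval from -0.33 to 0.35, the smallest difference of the 12 probes.

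*Csf2rb* encodes the common beta chain that transmits the signals of GM-CSF, IL-3 and IL-5 (chr15:78325800-78351001). The probe A_52_P52618 read 2.76 and 2.41 with EMPTY and 2.26 and 2.36 with *Mir195*. The probe A_66_P123635 read -0.81 and -1.11 with EMPTY and -1.23 and -1.09 with *Mir195*. EMPTY replicate 1 was the highest array for both, and the first probe was lower with *Mir195* without overlap while the second overlapped. The differences were -0.28 ± 0.16 and -0.20 ± 0.16 (SE, n = 2 per group; limma adjusted p = 0.779 and 0.837), and without EMPTY replicate 1 they were -0.10 and -0.052.

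*Csf2rb2* lies on the same chromosome, with 20078 bases between the 2 genes. Its probe with the shared letters, A_51_P146753, read 2.29 and 1.98 with EMPTY and 1.79 and 2.06 with *Mir195*. The other, A_55_P2034663, read 0.53 and -0.08 with EMPTY and -0.17 and 0.22 with *Mir195*. Both overlapped, at -0.22 and -0.20, and both again had EMPTY replicate 1 as the highest and *Mir195* replicate 1 as the lowest array. The second probe has no window of 30 bases with fewer than 15 differences from a *Csf2rb* probe. The share of all probes with this order of arrays was not counted. Signal of 1 gene on the other's probe was not tested.

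*Csf3r* encodes the G-CSF receptor of granulocytes (chr4:126023441-126044975). Its single probe read 5.60 and 5.94 on the EMPTY arrays and 5.90 on *Mir195* replicate 1. On *Mir195* replicate 2 the spot was flagged by the scanner software as a non-uniform outlier, with a signal of 21189 where the other arrays gave 54639, 63298 and 53949. The probe was therefore left out of the test, and no difference is given for it. The authors' table keeps this spot, at 4.62 against 5.54, 5.89 and 5.76 on the other arrays in the same order, so a comparison made from that table would give a lower *Csf3r* value with *Mir195* from a flagged spot.

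The probes that share letters with the *Csf3r* probe on the same strand are annotated to *Gm13241*, with up to 30 bases in common, *LOC631924*, with 20, and *Slc10a1*, with 18. Relative to the mean of the EMPTY arrays, the *Csf3r* probe stood at -0.17, 0.17 and 0.13 on the 3 arrays that measured it. On the same arrays *Gm13241* stood at -0.14, 0.14 and 0.16, *LOC631924* at -0.19, 0.19 and 0.10, and *Slc10a1* at -0.10, 0.10 and 0.21. All of them had EMPTY replicate 1 as the lowest array. The EMPTY values of each probe mirror each other, since they are taken from their own mean. EMPTY replicate 1 was also the lowest array for 7 of the 12 tested receptor probes. None of those 12 shares a run of 18 bases with a probe of another gene. How often EMPTY replicate 1 was lowest among all probes was not counted. *Slc10a1* encodes a bile acid transporter of hepatocytes. The probes that hold the letters on the opposite strand, of *Galns* and *Nxnl1*, had EMPTY replicate 1 above EMPTY replicate 2. How much of the *Csf3r* signal comes from transcripts with the repeat was not tested.

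**Figure D2:**
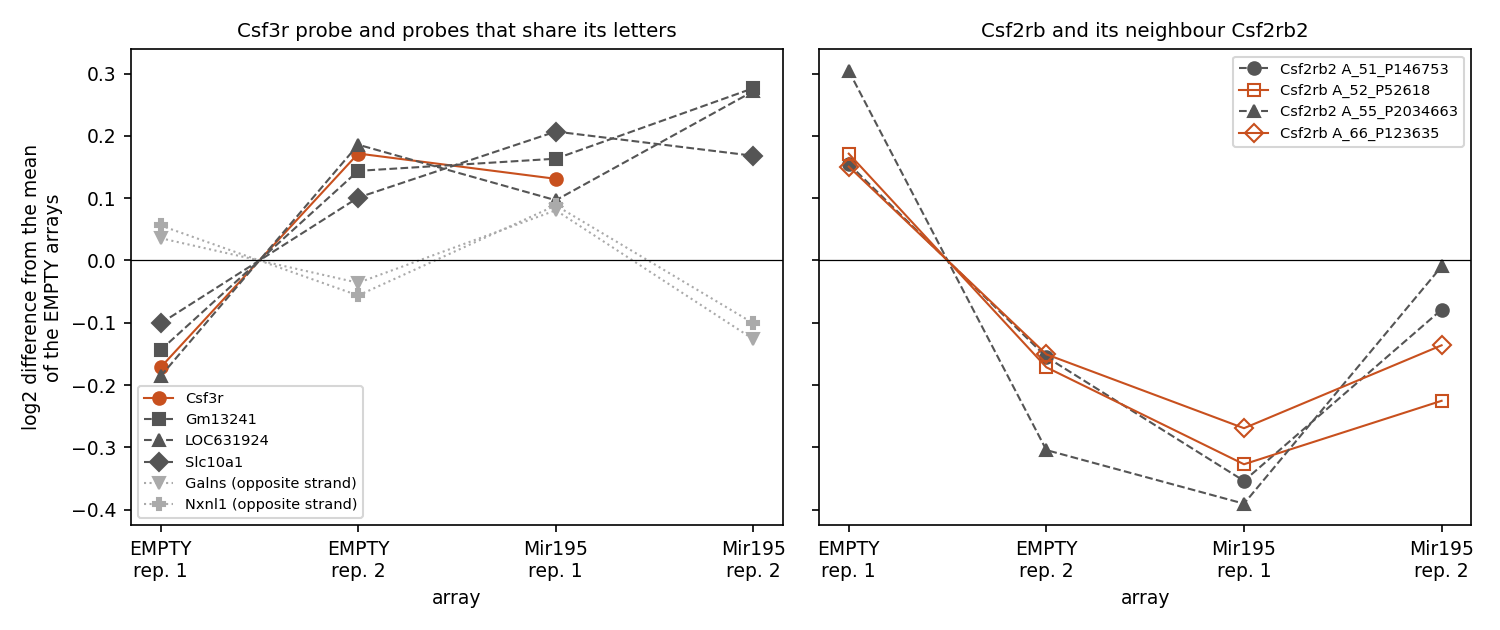
Log2 difference of each array from the mean of the EMPTY arrays (y axis) for EMPTY and Mir195 replicates 1 and 2 (x axis), with lines that only join the points of a probe. Left, the Csf3r probe and the 5 probes that share at least 18 of its bases, where the same-strand probes lie between -0.19 and -0.10 on EMPTY replicate 1 and the opposite-strand probes above 0. Right, the probes of Csf2rb and Csf2rb2, all of which are highest on EMPTY replicate 1 and lowest on Mir195 replicate 1.

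The receptors for the cytokines of lymphoid culture and those for the colony-stimulating factors were then set side by side, with each gene represented by its tested probe of highest mean signal. The median log2 difference was 0.052 over the 5 genes *Il7r*, *Il2rg*, *Crlf2*, *Flt3* and *Kit*, and 0.0066 over the 3 tested genes *Csf1r*, *Csf2ra* and *Csf2rb*, beside 0.0097 over all 19042 tested genes. Each class held genes on both sides of 0. Sorting the same genes by receptor type, which was done after their values had been seen, gave 3 of 3 receptor tyrosine kinases above 0, with a median of 0.16, though *Csf1r* by its brightest probe was below 0 under median scaling (-0.016). It gave 2 of 5 cytokine receptor chains above 0, with a median of -0.11, and both of these, *Il7r* and *Csf2ra*, were below 0 under median scaling. Of all tested genes, 52.2% were above 0. These medians are descriptions of few genes and carry no test.

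The size of the differences can also be read against all probes. The median absolute log2 difference was 0.198 over the 12 receptor probes and 0.125 over all tested probes, and 17.99% of all probes differed by more than the largest receptor difference. The 95% intervals of the receptor probes had a median half-width of 0.370, against 0.382 over all probes. The precision at these receptors was therefore that of a typical probe, and a change smaller than this half-width could not be told from 0 even without adjustment. The threshold adjusted over all tested probes is stricter. *Cd79b*, which differed by 1.18, did not pass it (limma adjusted p = 0.530). EMPTY replicate 1 was the lowest array for 7 of the 12 receptor probes and the highest for 3, and *Mir195* replicate 2 was the highest for 6. All 5 probes that were higher with *Mir195* without overlap had EMPTY replicate 1 lowest and *Mir195* replicate 2 highest.

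**Figure D3:**
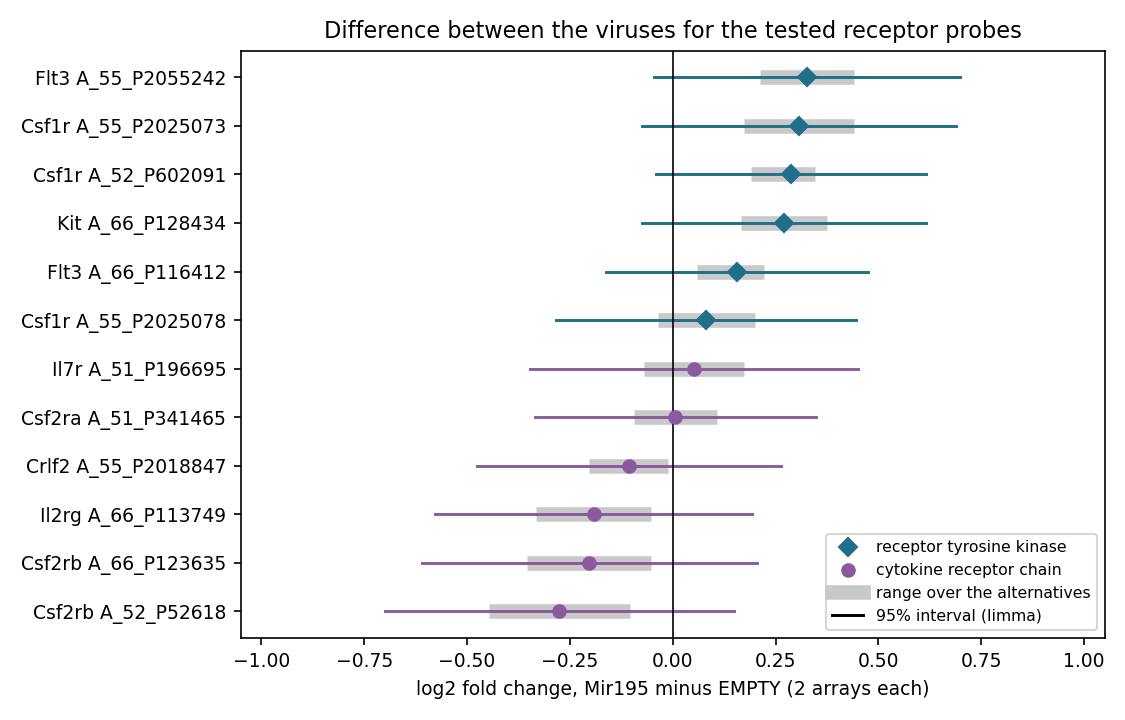
Log2 fold change, Mir195 minus EMPTY (x axis, 2 arrays per virus), of the 12 tested receptor probes (y axis), with 95% limma intervals as lines and the range over the alternative settings as grey bars. Diamonds are receptor tyrosine kinases, from 0.082 to 0.33, and circles are cytokine receptor chains, from -0.28 to 0.052. The Csf1r probe at 0.082, Il7r and Csf2ra fall below 0 under median scaling. Every interval holds 0 and none reaches 1 or -1.

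The genes around the receptors were examined as 5 lists, from ligands to transcription factors, and no gene of any list passed the test. Of 8 ligands, *Il7*, *Tslp* and *Csf3* were not tested because their probes were well above background on no array, and the other 5 had a median of -0.03. *Il34*, the second ligand of the *Csf1r* product, was highest at 0.34, and *Csf2*, which encodes GM-CSF, lowest at -0.26. The *Il34* difference was 0.15 without EMPTY replicate 1 and 0.17 without *Mir195* replicate 2. The *Csf2* probe read -1.73 and -2.97 with EMPTY and -3.02 and -2.20 with *Mir195*, so the spread within a virus exceeded the difference. The genes of Flt-ligand and SCF, *Flt3l* and *Kitl*, differed by -0.03 and 0.17. *Csf1*, the gene of M-CSF, was above background on all 4 arrays. It read -0.87 and -0.94 with EMPTY and -1.09 and -0.83 with *Mir195*, a difference of -0.05.

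Of 28 other cytokine receptors, 26 were tested, 11 above 0 and 15 below, with a median of -0.07. In 3 of them the *Mir195* arrays were higher without overlap and in 7 lower, where 23.4% and 14.4% of all tested probes were. *Osmr*, which encodes the oncostatin M receptor, had the largest value above 0, 0.42, from -5.25 and -5.25 with EMPTY and -5.63 and -4.02 with *Mir195*, which lay on both sides of the EMPTY arrays. *Epor*, which encodes the erythropoietin receptor, had the largest value below 0, -2.30, from -3.35 and -3.25 with EMPTY and -3.26 and -7.93 with *Mir195*. The *Epor* probe was well above background on every array but *Mir195* replicate 2, and without that array its difference was 0.04. Of the erythroid markers, the globin gene *Hba-a1* was above background on all 4 arrays, at -2.76 and -3.84 with EMPTY and -4.05 and -3.70 with *Mir195*, and *Alas2* and *Klf1* were above background on none.

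All 20 genes listed as Janus kinases, STATs and their targets were tested, 7 above 0 and 13 below, with a median of -0.08. The kinases that serve the IL-7 receptor, *Jak1* and *Jak3*, differed by -0.10 and 0.05, and its main STATs, *Stat5a* and *Stat5b*, by 0.03 and 0.05. *Socs1*, a feedback inhibitor of the Janus kinases, had the largest value below 0, at -0.50, from 1.97 and 1.53 with EMPTY and 1.27 and 1.22 with *Mir195*. Its groups did not overlap, and its limma adjusted p was 0.584. Without EMPTY replicate 1 the difference was -0.28.

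Of 22 names listed as adaptors and negative regulators, 21 were found on the array. All 21 were tested, 9 above 0 and 12 below, with a median of -0.03. *Gab1*, a docking protein for tyrosine kinase receptors, had the largest value above 0, at 0.55, from -6.30 and -6.48 with EMPTY and -5.92 and -5.77 with *Mir195* (limma adjusted p = 0.530). The *Gab1* probe was well above background on all 4 arrays, but these levels are low. The authors' log2 values gave a difference of 0.33. *Sla2*, an adaptor that dampens lymphocyte receptor signals, had the largest value below 0, at -0.20, which was -0.13 without *Mir195* replicate 2.

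Of 18 transcription factors, 17 were tested, 10 above 0 and 7 below, with a median of 0.03. *Tal1*, a factor of early haematopoietic progenitors that acts at *Kit*, had the largest value above 0, at 0.45, and *Foxo1*, which acts at *Il7r*, the largest below 0, at -0.29. The *Foxo1* probe read 0.23 and -0.28 with EMPTY and -0.56 and -0.06 with *Mir195*, so the groups overlapped. Without EMPTY replicate 1 the difference of *Foxo1* was -0.033 and that of *Tal1* 0.27, and without *Mir195* replicate 1 that of *Foxo1* was -0.036. *Spi1*, which encodes PU.1 and acts at *Il7r* and the colony-stimulating factor receptor genes, differed by -0.09. The *Ebf1* probe was well above background on all 4 arrays, at 2.01 and 1.89 with EMPTY and 1.85 and 2.03 with *Mir195*. The position of this probe relative to the deletion is not given in the sources used here, so it does not check the genotype.

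**Figure D4:**
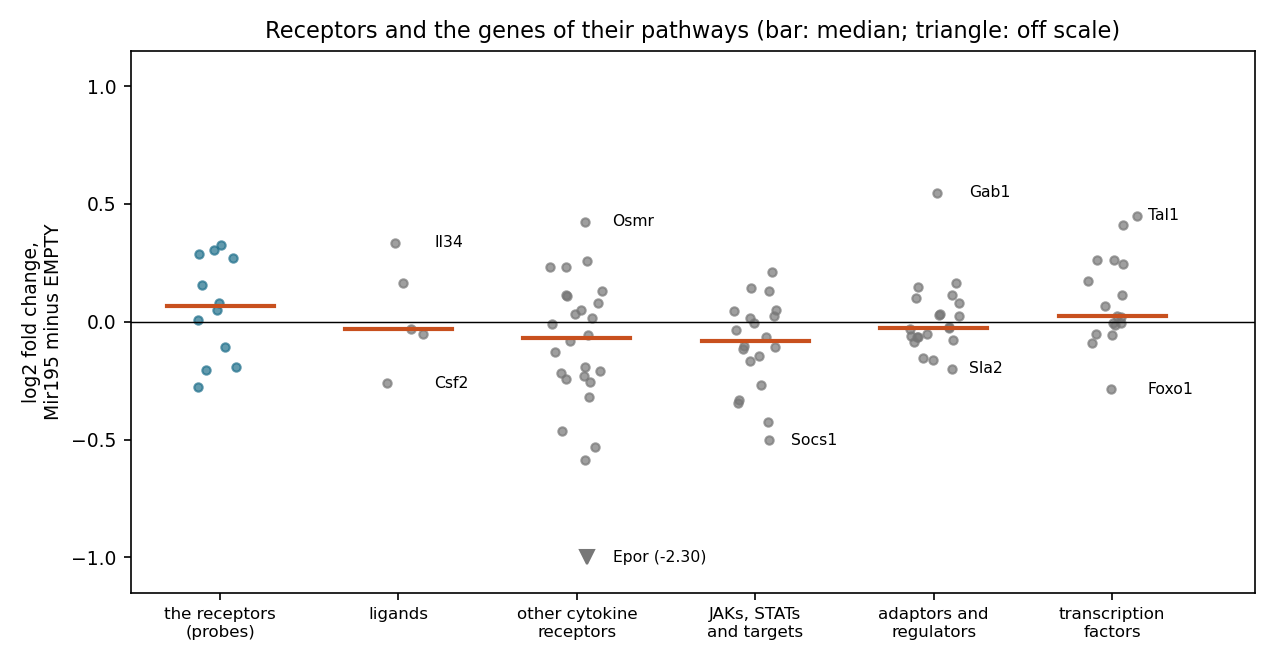
Log2 fold change, Mir195 minus EMPTY (y axis), of the 12 tested receptor probes and of the tested genes in 5 lists of the receptors' pathways (x axis). Each point is a probe or a gene, bars are medians, and the genes named are those that the text gives as the highest or lowest of a list. The medians of the lists lie between -0.08 and 0.03, and Epor, at -2.30, is drawn as a triangle at the lower edge.

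The cell type of the cultures was checked on marker lists, which were also chosen with earlier results known. The label of an early B cell was set against 8 B lineage genes, of which 7 were found on the array and 5 were above background on all arrays. The summed level of the B lineage markers was between 12.99 and 13.87 on the 4 arrays. Without *Blnk*, which made up most of it, the sum was 1.02 and 1.11 with EMPTY and 1.53 and 2.11 with *Mir195*. *Cd79b* was the brightest of the markers left, at -1.18 and -0.96 with EMPTY and -0.26 and 0.49 with *Mir195*. Of the 6 tested B lineage markers, 4 were above 0 and 2 below. Without overlap, 2 were higher with *Mir195* and 2, *Blnk* and *Cd79a*, lower. The lymphoid progenitor markers, which include *Il7r* and *Flt3*, summed to between 111 and 129. OP9 stroma markers summed to 15.9 and 15.8 with EMPTY and 12.5 and 13.6 with *Mir195*, while *Dcn*, *Lum* and *Pdgfra* were above background on no array. Without *Thy1*, which made up most of them and is also a lymphoid gene, the sums were 4.09 and 4.47 with EMPTY and 3.89 and 6.69 with *Mir195*. Of the 6 tested OP9 markers, 5 were above 0, with a median of 0.20. No marker of any list passed the test.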

How the data were processed

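RNA of 2 EMPTY and 2 *Mir195* samples, about 100 ng each, was hybridised with a single dye. The authors deposited each spot's intensity from Agilent Feature Extraction, after subtraction of the background and a spatial trend, and a table of log2 values per probe, less the array's 75th percentile. The version is 9.1.3.1 in the file headers and 11.5.1.1 in the submitters' processing notes. The intensity was converted to log2, spots of a probe were averaged, and the 75th percentile over 39429 probes was subtracted. These values and the authors' log2 values correlated at 0.998 on each array.

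No spot was saturated, and 92 probes whose spots were all outliers on an array were left out. Symbols were assigned by accession for 26055 probes from RefSeq (GRCm38.p6), and all 13 receptor accessions matched. The arrays' 75th percentile lay at a signal of 902 to 1127, the background 38 to 39, and 23678 to 24700 probes per array were well above background. Where in its transcript each probe lies was not determined.

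Probes were compared with lmFit and eBayes (limma 3.58.1, R 4.3.3, with data.table in version 1.17.8), two-sided, with Benjamini-Hochberg adjustment over 23731 probes. The fit was run on simulated data with independent normal noise and variances drawn from its own estimates. Such data hold no deviant array, so they cannot show how the fit behaves with one. The receptors, lists and markers were chosen with earlier results of these data known. Each receptor probe is named, and in each list the genes with the largest values above and below 0. Some genes that this rule or the marker lists hold are not reported here. The alternatives were normexp with an offset of 50, quantile normalization, median scaling, the percentile over detected probes, the authors' log2 values, a filter that was looser or stricter, a trend with robust estimation, the replicate block, the methods' t-test, each array left out and, for the medians, the mean of a gene's probes.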

Additional observations from a re-analysis of the deposited data

How the results depend on the processing

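Of 168 alternative values of the 12 receptor probes, 160 kept their direction and none passed an adjusted p of 0.05, with 0.254 as the lowest. The looser and stricter filters, the trend with robust estimation, the replicate block and the methods' t-test leave the log2 difference itself unchanged. Their values are counted in the 168 but could not change sign. The 8 values that changed sign belonged to 3 probes near 0. *Il7r* became -0.0054 with normexp and -0.046 under median scaling, and lay between -0.070 and 0.17 when each array was left out. *Csf1r* A_55_P2025078 became -0.016 under median scaling and lay between -0.037 and 0.20 with an array left out, and *Csf2ra* became -0.091 and lay between -0.094 and 0.11. Median scaling moved the median of all probes from 0.013 to -0.084, which is the direction of these changes. The median of the receptors for the culture cytokines was -0.046 under median scaling and lay between -0.017 and 0.15 with an array left out, and that of the colony-stimulating factor receptors was -0.091 and lay between -0.094 and 0.11. The number of probes past the threshold, 0, became 3 under median scaling and 5 with the replicate block. It was 0 without either EMPTY array, 904 when *Mir195* replicate 1 was missing and 3 when *Mir195* replicate 2 was, where the lone array was assumed to vary like the others. The t-test of the methods called 0 probes once adjusted and 1134 at an unadjusted p under 0.05, against 1979 for limma. The deviations of samples of the same number correlated at -0.101. With 2 pairs and no stated origin of the replicates, this cannot decide whether such samples share more than a number. The crossed pairing, added after seeing the data, made 0 calls. Outside the receptors, with an array left out, *Csf2* lay between -0.88 and 0.36, *Osmr* between -0.38 and 1.23 and *Epor* between -4.63 and 0.035. *Osmr* and *Epor* passed the threshold without *Mir195* replicate 1 and turned without *Mir195* replicate 2. The cause of the other changes was not tested.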

Other observations

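The receptor probe with the widest range over the arrays was *Flt3* A_55_P2055242, at 0.508 on the log2 scale. Probes that all 4 arrays measured well above background were compared with it, and the named genes nearest to its pattern, by the root mean square of the array-centred log2 values, were *Zfp202* (0.011), *Eif5* (0.013) and *Lenep* (0.015). Of 19109 probes compared, 1280 lay within 0.1 of it, so this likeness over 4 arrays singles out no small group of genes.

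Among the marker lists, *Thy1*, a surface protein of stroma and of some lymphoid cells, read 3.56 and 3.50 with EMPTY and 3.10 and 2.79 with *Mir195*, a difference of -0.59 (limma adjusted p = 0.530). *Cpa3*, a mast cell protease, differed by -0.65, and *Fcgr3*, an Fc receptor of myeloid and natural killer cells, by -0.55. *Cd79b*, a signalling chain of the B cell receptor, differed by 1.18 and *Rag1*, which recombines antigen receptor genes, by 0.52, while *Dntt*, which adds bases at their joins, differed by -0.54. These genes were named after their values were seen, and none passed the adjusted threshold. They do not stand for their lists. Of 11 tested myeloid markers 8 were above 0, with a median of 0.32. Of 6 tested B lineage markers 4 were above 0 and 2 below.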
